A study of Mus musculus with 24 samples.

Results

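Mouse hematopoietic stem and progenitor cells (HSPCs) sorted 20 weeks after competitive bone marrow transplantation were compared with HSPCs of untreated mice, with both genotypes of the study pooled. The comparison takes 8 of the 24 libraries of the series, chosen by their labels: 4 from 20-week HSPCs (2 WT and 2 Srcap mutant) and 4 from untreated HSPCs (2 WT and 2 Srcap mutant). Every cell came from the strain C57BL6/J, and 30000 sorted HSPCs per sample were the stated input. The 20-week cells were donor test cells carrying CD45.2, which had competed with other marrow in a transplanted host; the titles of the untreated libraries carry the word Germline. Srcap encodes the ATPase of a chromatin remodelling complex that deposits the histone variant H2A.Z; the file headers call the mutants het, and no age of donors, hosts or untreated mice is given in the labels. The labels speak of independent samples without saying that they are separate mice, so the p-values measure the spread between these samples only.

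Hematopoietic stem cells sit at the top of the blood system and give rise to multipotent progenitors, which then commit to lymphoid, erythroid, megakaryocytic or myeloid fates. In a competitive transplant, donor and competitor marrow are injected together into a conditioned host, and only stem cells that find a niche, survive and divide still supply the marrow months later. In mice, old age is known to leave stem cells with raised platelet-lineage genes such as Selp and Vwf, and with fewer lymphoid-primed progeny.

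The study also holds 2-week and doxorubicin HSPCs and B and T cells, which enter no test here. Total counts were 52281457 to 78432483 per 20-week library and 35635255 to 52543623 per untreated library. Immunoglobulin genes with Jchain, the joining chain of polymeric antibodies, held 19.8% and 26.7% of all counts in the WT and 16.9% and 24.7% in the mutant 20-week libraries, against 3.66% and 6.22% in the WT and 4.95% and 3.99% in the mutant untreated libraries. These 433 genes were taken out before library sizes were computed and are in no value below. Levels are given as CPM, counts scaled to library size, and per-library values run WT replicate 1, WT replicate 2, mutant replicate 1, mutant replicate 2. The 20-week files and the untreated files name different alignment directories in their headers, so the condition and that directory cannot be told apart in any result. In bulk RNA of this kind, fewer cells of a type and less RNA per cell cannot be told apart either. WT untreated replicate 1 stood apart from the other 7 libraries in mature neutrophil genes, described below.

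The HSPC label was checked first. Kit, the stem cell factor receptor that defines the gate, had 615, 571, 381 and 581 CPM in the 20-week libraries, against 536, 564, 571 and 451 CPM in the untreated libraries. Cd34, a progenitor surface protein, had 841, 780.4, 787 and 692 CPM at 20 weeks, against 1003, 1072, 979 and 779 CPM in untreated HSPCs. Cd48, a SLAM receptor of multipotent progenitors, had 131, 114, 139.9 and 107 CPM, against 119, 116, 118 and 137 CPM. None of these 3 genes passed the test, and every library of both conditions carried them. The HSPC markers Ly6a and Flt3 did pass, with log2 fold changes of 1.66 and -0.84 and no overlap between the conditions. Their values are given below. Srcap itself (chromosome 7, 127111155 to 127160391, plus strand, on GRCm39) was detected in all 8 libraries, at 7.38, 9.97, 3.46 and 10.4 CPM at 20 weeks and at 9, 8.69, 13.9 and 11.9 CPM in untreated HSPCs, with a log2 fold change of -0.46 ± 0.31 (SE, adjusted p = 0.308).

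Across all genes, 17988 passed a filter on low counts and were tested with genotype as a covariate by edgeR's quasi-likelihood test, with Benjamini-Hochberg adjustment and a threshold of 0.05 on the adjusted p. At 20 weeks 4610 genes differed (25.6% of those tested). Of these 2366 were higher (13.2% of all genes tested) and 2244 lower (12.5%). Changes of at least 2-fold were seen in 663 of the higher and 627 of the lower genes. These make up 3.69% and 3.49% of all genes tested. These shares are the background for every count below. The median log2 fold change of all tested genes was -0.01. In 2699 genes (15% of those tested) all 4 of the 20-week libraries lay above all 4 untreated ones, and in another 2699 (15%) all 4 lay below. Without mutant untreated replicate 1 the count of genes that differed was 2964, and without mutant untreated replicate 2 it was 2929.

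Among the genes with the largest changes, the higher side held antigen presentation and mature B cell genes, the stem cell ageing genes Selp and Aldh1a1, and both metallothioneins. The 15 largest increases among genes averaging log2 CPM 3 or more were Cr2, Selp, Mt2, Cacna1i, Ly6k, Slpi, H2-Eb1, Mt1, Cxcr5, Fcmr, Scd1, Aldh1a1, H2-Aa, Ms4a1 and Lipc, from 4.76 to 3.12 on the log2 scale. The 15 largest decreases were Slc35d3, Gria2, Cxcl12, Mir17hg, Ccl3, Cd33, Mirt1, Mtcp1, Hmga2, Mx1, Zc3h11a, Plag1, Ddx4, Ttc14 and Rftn2, from -3.35 to -1.74. Of these 30 genes, 4 lost their call in at least 1 of the fits without a library: Slpi (5 of 8 such fits), Cxcr5 (6 of 8), Cxcl12 (4 of 8) and Fcmr (without mutant untreated replicate 2).

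Genes that mark aged stem cells were higher at 20 weeks as a group: of 26 listed genes 23 were tested, 17 rose and 1 fell, with a median log2 fold change of 2.00. The gene that fell was Zfp36, an mRNA decay factor, which lost its call without WT 20-week replicate 2 or mutant 20-week replicate 1. Selp, the adhesion receptor P-selectin (chromosome 1, 163942833 to 163977595, plus strand), had 113, 52.4, 67.6 and 94.1 CPM at 20 weeks, against 6.99, 3.89, 6.05 and 5.99 CPM in untreated HSPCs. Its lowest 20-week library was thus well above its highest untreated one, and the log2 fold change was 3.84 ± 0.29 (adjusted p = 7.8e-05). Vwf, von Willebrand factor of platelets and of platelet-biased stem cells, had 75.1, 60.8, 46 and 77.7 CPM at 20 weeks, against 8.86, 11.5, 9.97 and 9.25 CPM in untreated cells, a log2 fold change of 2.72 ± 0.17 (adjusted p = 3.33e-06). Aldh1a1, which oxidises retinal and other aldehydes, averaged 129.9 ± 25.8 CPM at 20 weeks and 13.7 ± 3.54 CPM in untreated HSPCs (SD, n = 4 each), 9.53-fold higher.

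The metallothioneins, small cysteine-rich proteins that bind zinc and copper, stood out within this list. Mt1 had 27.9, 39.3, 24.4 and 39.6 CPM at 20 weeks, against 3.01, 4.69, 2.39 and 2.98 CPM in untreated HSPCs, and rose by a log2 fold change of 3.35 ± 0.23 (adjusted p = 3.94e-06). Mt2 had 15.6, 32.2, 11.6 and 28.8 CPM at 20 weeks, against 0.623, 2.68, 1.91 and 0.975 CPM in untreated HSPCs. Every 20-week library lay above every untreated one for both genes. Nupr1, a stress-induced chromatin protein, rose by 3.73 ± 0.57 and Clu, the secreted chaperone clusterin, by 2.06 ± 0.27. Mt1, Mt2, Nupr1 and Clu kept their calls in each of the 8 fits that leave out 1 library.

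The promoters of both metallothionein genes, which lie next to each other, are shown because they rose together and share regulatory letters. Sequences are from RefSeq on GRCm38.p6, 250 bases before to 50 bases after the annotated start, 5′ to 3′ on the gene's strand; gene positions elsewhere in the text are on GRCm39, the build of the count files. Capitals mark TGCACNC or TGCGCNC on either strand, the core that the zinc-sensing factor MTF1 reads in metal response elements; this motif was chosen after the values were seen. Mt1 lies on the plus strand at chr8:94178839-94179138 and Mt2 on the plus strand at chr8:94172368-94172667.
Mt1: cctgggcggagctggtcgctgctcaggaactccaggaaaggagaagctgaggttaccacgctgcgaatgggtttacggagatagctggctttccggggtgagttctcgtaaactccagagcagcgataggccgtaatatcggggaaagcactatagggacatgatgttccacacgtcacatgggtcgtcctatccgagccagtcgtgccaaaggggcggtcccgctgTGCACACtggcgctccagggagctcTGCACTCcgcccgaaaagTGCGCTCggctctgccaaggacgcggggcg
Mt2: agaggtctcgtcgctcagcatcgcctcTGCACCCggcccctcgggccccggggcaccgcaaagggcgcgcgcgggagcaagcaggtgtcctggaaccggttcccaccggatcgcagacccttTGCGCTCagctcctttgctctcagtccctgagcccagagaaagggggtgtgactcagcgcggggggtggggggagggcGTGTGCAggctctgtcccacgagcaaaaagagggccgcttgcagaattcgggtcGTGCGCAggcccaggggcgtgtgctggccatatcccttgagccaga

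The Mt1 window held 3 matches, a number reached by 1.97% of the 32851 RefSeq promoters of the same length, and the Mt2 window 4, reached by 0.517%. These short motifs are common, and 25.7% of all promoters held at least 1 core. A match describes the letters of the window and says nothing of binding in these cells.

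**Figure D1:**
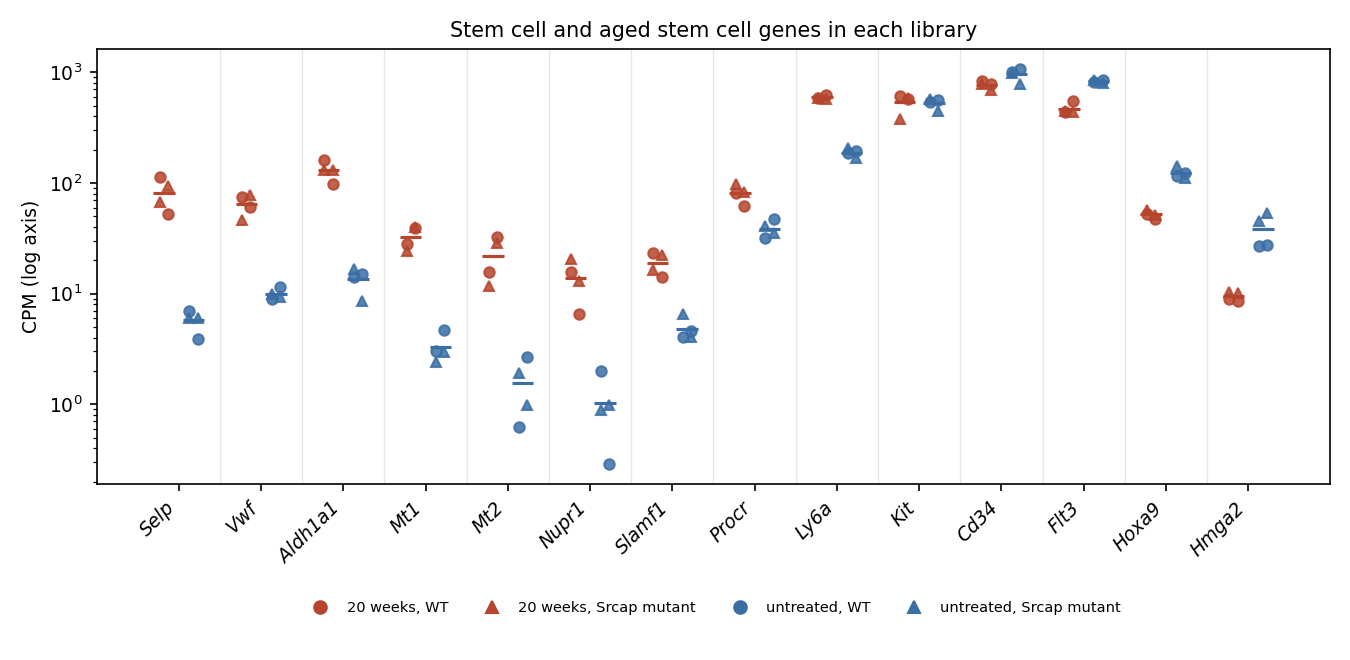
CPM of stem cell and aged stem cell genes in each library on a log axis, with circles for WT, triangles for Srcap mutants and lines for the mean of 4 libraries. The 20-week libraries, left of each pair, lie above all untreated libraries for Selp, Vwf, Aldh1a1, Mt1, Mt2, Nupr1, Slamf1, Procr and Ly6a, below them for Flt3, Hoxa9 and Hmga2, and among them for Kit and Cd34.

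Stem cell identity genes moved in part. Of 30 tested, 12 rose and 4 fell, with a median of 0.39. Slamf1, the SLAM receptor CD150 used to isolate long-term stem cells, had 23.1, 14.2, 16.2 and 22.3 CPM at 20 weeks, against 4.09, 4.58, 6.56 and 4.04 CPM in untreated HSPCs (log2 fold change 1.98 ± 0.23, adjusted p = 9.86e-05). Ly6a, the surface antigen Sca-1 of the same gate, had 586, 625, 590.4 and 577 CPM at 20 weeks, against 185, 194, 208 and 167 CPM (1.66 ± 0.11, adjusted p = 3.33e-06). Procr, the receptor EPCR, averaged 81.5 ± 15 CPM at 20 weeks and 38.8 ± 6.52 CPM in untreated HSPCs (SD, n = 4 each). Esam, an endothelial-type adhesion molecule of stem cells, and Pdzk1ip1 rose by 1.35 and 1.25.

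Hoxa9, a homeobox gene that drives progenitor self-renewal, went the other way, at 52.7, 47, 57 and 51.2 CPM at 20 weeks against 115, 123, 141 and 112 CPM in untreated HSPCs (log2 fold change -1.24 ± 0.11). Of 14 genes of the HoxA and HoxB clusters tested, Hoxb2, Hoxb5, Hoxb6 and Hoxb8 rose (4) and Hoxa3, Hoxa7 and Hoxa9 fell (3); Hoxa7 lost its call in 5 of the 8 fits without 1 library. Hoxb8, at 1.3, 1.56, 4.03 and 2.36 CPM at 20 weeks against 0.0271, 0.288, 0.0193 and 0.139 CPM, and Hoxb6, at 1.63 to 2.39 CPM against 0.347 to 0.461 CPM, were low in both conditions. Hoxb5, whose restricted expression marks long-term stem cells in mice, rose by 1.51 ± 0.43 and lost its call without mutant 20-week replicate 2 or either mutant untreated replicate (1.27 to 2.12 over the fits without 1 library).

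The early lymphoid programme was lower. Of 20 lymphoid priming genes 8 fell and 2 rose, with a median of -0.57. Per genotype the median was -0.21 in WT and -0.88 in mutants, a difference that was not tested for the list. Flt3, the cytokine receptor of lymphoid-primed progenitors, had 437, 550.3, 451 and 437 CPM at 20 weeks, against 824, 859.5, 856 and 807 CPM in untreated HSPCs, and fell by 0.84 on the log2 scale (adjusted p = 0.00024). Satb1, a chromatin organiser of lymphoid cells, fell by 1.33, Il7r, the interleukin-7 receptor, by 1.28, Il12a by 1.36 and Notch1 by 0.90, each with all 4 of the 20-week libraries below all untreated ones. Dntt, terminal transferase, had 1152, 1419.6, 1538 and 1006 CPM at 20 weeks against 1742, 1661, 2019 and 2783 CPM; it fell by 0.66 and lost its call without mutant untreated replicate 2. Ly6d, a marker of B-committed lymphoid progenitors, instead had 201, 247, 284 and 283 CPM at 20 weeks, against 74.5, 115, 114 and 149 CPM in untreated HSPCs, and rose by 1.18 ± 0.14. The lymphoid count depends on 1 library: without WT 20-week replicate 2, 13 genes of this list were lower.

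MHC class II genes, whose products present peptides to helper T cells, were 10 of 11 higher, with a median of 2.28. H2-Aa, the alpha chain of the I-A molecule (chromosome 17, 34501718 to 34506797, minus strand), had 803, 929, 1124 and 977 CPM at 20 weeks, against 92.2, 144, 99.4 and 71.4 CPM in untreated HSPCs (log2 fold change 3.25 ± 0.21, adjusted p = 7.88e-06). Cd74, the invariant chain that escorts class II molecules, had 1751, 2323, 2706 and 2796 CPM at 20 weeks, against 259, 441, 279 and 211 CPM. Ciita, the master coactivator of class II transcription, had 42.5, 47.5, 34.7 and 58.8 CPM, against 9.21, 13.4, 10.7 and 6.22 CPM, and rose by 2.23 ± 0.23 (adjusted p = 9.71e-05). Chains, chaperone and coactivator thus all lay above the untreated range in all 4 of the 20-week libraries. H2-Ob, a subunit of the B cell peptide editor DO, was the exception, with 181, 171, 187 and 181 CPM against 189, 241, 220.3 and 289.5 CPM, a fall of 0.38 that 4 of the 8 fits without 1 library did not call.

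The promoters of H2-Aa and H2-Eb1 are shown because both genes rose together and because class II promoters share regulatory letters. They come from RefSeq on GRCm38.p6 in the same way. Capitals mark CCAAT on either strand, the letters bound by NF-Y, which takes part in the conserved enhanceosome of class II promoters; this motif too was chosen after the values were seen. H2-Aa lies on the minus strand at chr17:34287774-34288073, and H2-Eb1 on the plus strand at chr17:34305617-34305916.
H2-Aa: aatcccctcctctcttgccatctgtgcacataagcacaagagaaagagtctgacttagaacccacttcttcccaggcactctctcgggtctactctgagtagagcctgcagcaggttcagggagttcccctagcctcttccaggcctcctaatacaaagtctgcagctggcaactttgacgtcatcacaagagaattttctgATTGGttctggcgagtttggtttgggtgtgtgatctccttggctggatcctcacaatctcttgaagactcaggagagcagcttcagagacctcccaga
H2-Eb1: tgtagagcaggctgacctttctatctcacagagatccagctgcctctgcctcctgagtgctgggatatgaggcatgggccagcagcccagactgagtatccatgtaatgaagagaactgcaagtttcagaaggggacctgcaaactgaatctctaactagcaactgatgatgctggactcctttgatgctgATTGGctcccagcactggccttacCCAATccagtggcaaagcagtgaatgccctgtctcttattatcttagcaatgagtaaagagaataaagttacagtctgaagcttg

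The H2-Aa window held 1 match and the H2-Eb1 window 2. Of the 32851 RefSeq promoters, 37.4% held at least 1 match and 11.7% at least 2. All 8 class II list members with a promoter in the RefSeq set held at least 1, among them H2-Ob, the member that fell. Here too a match says nothing of binding in these cells.

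B cell genes split. Of 20 tested, 11 rose and 1 fell, with a median of 1.10. Genes of mature B cells rose most: Cr2, the complement receptor CD21 of mature and marginal zone B cells (chromosome 1, 194819119 to 194859024, minus strand), had 31.2, 17.2, 34.3 and 41.7 CPM at 20 weeks, against 1.35, 1.3, 1.23 and 0.613 CPM in untreated HSPCs (log2 fold change 4.76 ± 0.33, adjusted p = 1.42e-05). Ms4a1, which encodes CD20, had 201, 169.6, 217 and 267 CPM, against 16.6, 38.9, 23.9 and 16.7 CPM. The receptor chain Cd79a had 340.3, 489, 423 and 417 CPM, against 164, 218, 185 and 260.1 CPM, and rose by 1.02 ± 0.15. By contrast Pax5, the B cell commitment factor, had 178, 231, 129 and 201 CPM at 20 weeks, against 179, 193, 168 and 300.4 CPM in untreated HSPCs, and did not pass the test (adjusted p = 0.609). Ebf1, a factor of early B cell specification, had 68.6, 112, 63.2 and 75.9 CPM, against 160.5, 131, 141 and 205 CPM, and fell by 1.0 ± 0.20; it lost its call without mutant 20-week replicate 1.

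Plasma cell and secretory pathway genes had 19 of 20 members higher and none lower (median 1.25). Mzb1, a chaperone of antibody secretion, had 62.7, 93.1, 59.9 and 75.1 CPM at 20 weeks, against 10.6, 17.8, 20.1 and 19.1 CPM in untreated HSPCs (log2 fold change 2.12 ± 0.21, adjusted p = 9.75e-05). Xbp1, the transcription factor of the secretory programme, had 573, 784, 477 and 753 CPM, against 228, 289.8, 256 and 235 CPM, and Tnfrsf17, the survival receptor BCMA of plasma cells, rose by 1.94 ± 0.21. Prdm1, which encodes BLIMP1, had 23.6, 36.9, 19.9 and 48.5 CPM, against 12.8, 24.4, 11.7 and 13.5 CPM, and was the 1 gene of the list that did not pass (adjusted p = 0.0569). At 20 weeks, in each genotype, the library with the larger immunoglobulin share had the higher CPM of Mzb1, Xbp1, Txndc5 and Sdc1. The immunoglobulin share and these genes moved together across conditions, and the part of antibody-secreting cells in the sorted populations was not tested.

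**Figure D2:**
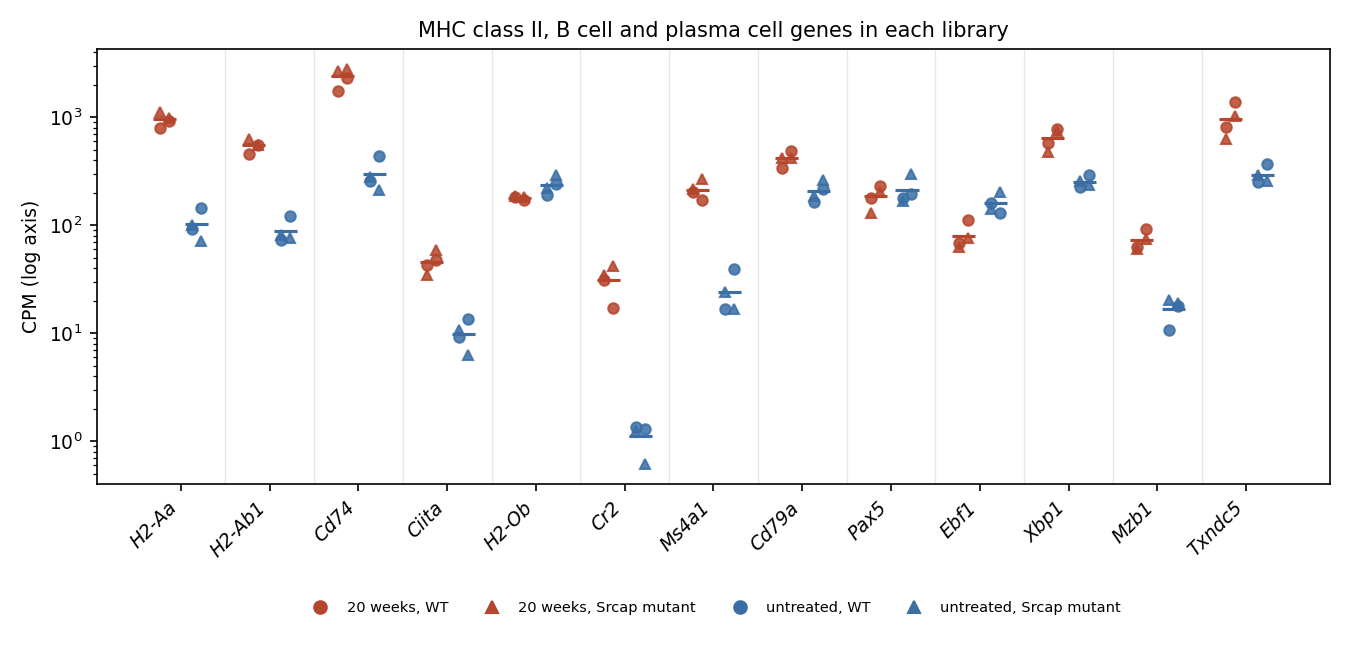
CPM of MHC class II, B cell and plasma cell genes in each library on a log axis, with circles for WT, triangles for Srcap mutants and lines for the mean of 4 libraries. The 20-week libraries, left of each pair, lie above all untreated libraries for H2-Aa, H2-Ab1, Cd74, Ciita, Cr2, Ms4a1, Cd79a, Xbp1, Mzb1 and Txndc5, below them for H2-Ob and Ebf1, and among them for Pax5.

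Markers of other cell types were set beside these genes. Shares of counts in this paragraph are of those left after removal of immunoglobulin genes. The 20 T and NK cell genes held 0.0206% to 0.0281% at 20 weeks and 0.0195% to 0.0271% in untreated libraries. Of these genes 3 rose (15%) and 2 fell (10%), near the background of 13.2% and 12.5%. Cd3e, at 1.26 to 2.36 CPM against 0.352 to 0.808 CPM, rose by 1.52 and lost its call in each of the 8 fits without 1 library. Ncr1 fell by 0.99 and lost its call without mutant untreated replicate 1. Cd3d and Lck did not pass in edgeR (adjusted p = 0.509 and 0.233). Nkg7, a granule protein gene of cytotoxic cells, rose by 0.44; it lost its call without either mutant untreated replicate, and its change was 0.00 under gene-length offsets. The 22 monocyte, macrophage and dendritic cell genes held 0.084% to 0.0901% at 20 weeks, against 0.0527% to 0.0567% in 3 untreated libraries and 0.346% in WT untreated replicate 1, so every 20-week library lay above those 3 and below the fourth; 5 rose, among them the complement genes C1qa (log2 fold change 1.30) and C1qc (1.06) and the dendritic cell receptor Xcr1 (1.69), and 8 rose without WT untreated replicate 1. The median of this list was 0.16, and C1qa overlapped between the conditions. The monocyte and macrophage markers Csf1r (-0.78), Adgre1 (0.75) and Vcam1 (0.19) did not pass the test. Siglech, of plasmacytoid dendritic cells, had 9.6 to 22.8 CPM at 20 weeks and 15.8 to 20.4 CPM in untreated HSPCs. Of the markers taken as defining these other cell types, among them Cd3e, Csf1r, Siglech, Prss34, Hba-a1 and Cdh5, none was at 0 in any of the 8 libraries, but other list members were, such as the mast cell tryptase gene Tpsb2, at 0 in all 4 untreated libraries. Of 15 basophil, mast cell and eosinophil genes 2 were higher and none lower, a share of 13.3% beside the background of 13.2%, with 4 higher without WT untreated replicate 1 and 1 without WT 20-week replicate 2; Prg2, the eosinophil major basic protein, had 255, 264, 290.5 and 351 CPM, against 34.2, 70, 72.5 and 52.5 CPM. The part of these cells in the class II result was not tested.

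Neutrophil genes separated 1 library from the rest. S100a9, an abundant granulocyte protein gene, had 13.3, 16.3, 45.2 and 15.4 CPM at 20 weeks, against 9227, 154, 78.2 and 53.2 CPM in untreated HSPCs, so WT untreated replicate 1 was far above every other library. The list of 22 neutrophil genes had a median of -4.04 with it, 3 genes higher and 0 lower in edgeR (12 lower in DESeq2), and a median of -1.33 without it, with 5 genes higher and 4 lower. The 3 that rose in the full comparison made up 13.6% of the list, near the background of 13.2%. They were primary granule genes of progenitors: Prtn3 rose by 1.0, Ctsg by 1.53 and Mpo, myeloperoxidase, by 0.47. Ctsg lost its call in 4 and Mpo in 1 of the fits without 1 library.

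Megakaryocyte and platelet genes were higher, 12 of 20 with 1 lower and a median of 0.96. Pf4, a platelet chemokine, had 13.9, 18.7, 25.1 and 15 CPM at 20 weeks, against 5.09, 3.63, 4.66 and 1.78 CPM in untreated HSPCs (log2 fold change 2.27 ± 0.32, adjusted p = 0.000428). Itga2b, the integrin CD41 of platelets and some stem cells, had 56.6, 41.7, 60.5 and 52.4 CPM, against 21.4, 18.5, 17 and 14.7 CPM. Cavin2 and Gp1ba, of platelet membranes, rose by 2.36 and 2.27, and Cavin2 is also among the aged stem cell markers that rose. Ppbp, another platelet chemokine, had 2.05 to 3.73 CPM against 0.705 to 3.4 CPM and did not pass (adjusted p = 0.367). Erythroid and heme genes were 9 of 25 higher and 2 lower, with a median of 0.57. Gata1, the factor shared by both lineages, had 8.98, 7.53, 9.14 and 11 CPM, against 4.82, 3.54, 2.23 and 2.45 CPM, and rose by 1.54 ± 0.28. Klf1, which activates globin genes, rose by 1.42 and Car1, an early erythroid carbonic anhydrase, by 1.76. Klf1 lost its call with all 16 HSPC libraries in the fit. The globin genes Hba-a1 and Hbb-bs overlapped between the conditions, with changes of 1.25 and 1.89 that did not pass in edgeR (adjusted p = 0.596 and 0.393). Their changes were -1.05 and -0.35 in WT and 3.76 and 4.35 in mutants. That difference did not pass for either gene (adjusted p = 0.998 for each, edgeR interaction test). Tfrc, the transferrin receptor through which cells take up iron, had 78, 73, 84.9 and 89.6 CPM, against 163, 165, 221 and 278 CPM, and fell by 1.32. Without mutant untreated replicate 1 the erythroid count was 5. The erythroid median was -0.03 in WT and 1.22 in mutants, a difference that was not tested for the list, and it ran from 0.29 without mutant untreated replicate 2 to 1.07 without WT untreated replicate 1.

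**Figure D3:**
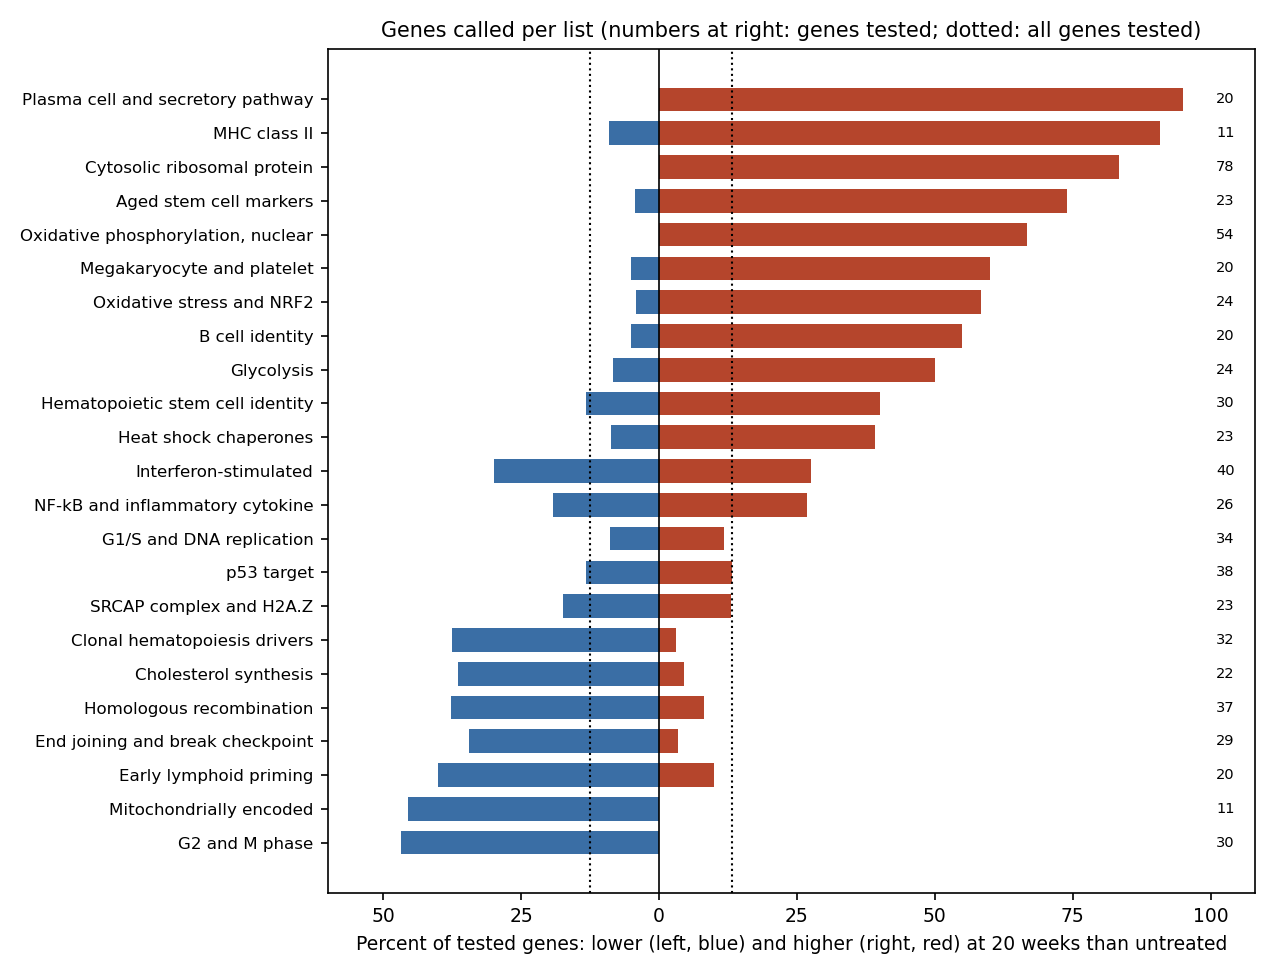
Percent of the tested genes of each list that were higher (red, right) and lower (blue, left) at 20 weeks than in untreated HSPCs, at an adjusted p under 0.05 in edgeR, with the number tested at the right and dotted lines at 13.2% and 12.5%, the shares over all genes. Plasma cell, MHC class II and ribosomal protein genes lie farthest to the right and G2 and M phase and mitochondrially encoded genes farthest to the left.

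Genes of the late cell cycle were lower. None of 30 G2 and M phase genes rose and 14 fell, with a median of -0.38. Of 34 genes of G1/S and DNA replication 4 rose (11.8%) and 3 fell (8.82%), near the background, with a median of 0.08. The higher count was 0 without WT 20-week replicate 2 and 1 without mutant untreated replicate 1 or either WT untreated replicate, and the lower count was 1 without replicate 2 of WT 20-week, mutant 20-week or mutant untreated HSPCs. Kif23, a kinesin of cytokinesis, had 67.6, 87, 75.9 and 68.6 CPM at 20 weeks, against 136, 143, 144 and 179 CPM in untreated HSPCs (log2 fold change -1.0 ± 0.12, adjusted p = 0.000134). Cenpe, a kinetochore motor, fell by 0.87, and Hmmr and Bub1, of the spindle and its checkpoint, by 0.81 and 0.68. Per genotype the median of the G2 and M phase list was -0.10 in WT and -0.62 in mutants, a difference that was not tested for the list. Without mutant 20-week replicate 2, and likewise without mutant untreated replicate 2, 9 of the G2 and M phase genes fell. Cdkn1b, the CDK inhibitor p27, had 70.1, 62.8, 70.5 and 69.7 CPM, against 112, 114, 125 and 119.7 CPM, and fell by 0.78 ± 0.09, and Ccnd1, cyclin D1, rose by 0.79. Of the 24 CDK inhibitor, cyclin D, RB and quiescence genes tested, 6 rose and 4 fell, and 3 rose without replicate 2 of WT 20-week, mutant 20-week, WT untreated or mutant untreated HSPCs.

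DNA repair genes were lower in the pathways of double-strand breaks and crosslinks. Of 37 homologous recombination genes 14 fell and 3 rose (median -0.30), of 29 end joining and checkpoint genes 10 fell and 1 rose (median -0.23), and of 21 Fanconi anaemia and translesion synthesis genes 6 fell and 1 rose (median -0.28). Of 34 excision and mismatch repair genes 3 fell and 3 rose (8.82% each, median -0.01). The medians in WT and in mutants were -0.14 and -0.40 for homologous recombination and -0.17 and -0.31 for end joining. For Fanconi anaemia and translesion synthesis they were -0.18 and -0.325. These differences between genotypes were not tested for the lists. Brca2, a central mediator of homologous recombination, had 58.3, 54.3, 34.2 and 52.4 CPM at 20 weeks, against 80.1, 64.9, 78.6 and 91.2 CPM in untreated HSPCs (log2 fold change -0.67 ± 0.16, adjusted p = 0.00911). Rad54b, a motor protein of recombination, fell by 0.91, Dclre1c, the nuclease Artemis, by 1.31, and Fancm and Rev3l, of crosslink repair and translesion synthesis, by 0.78 and 0.71. Of the genes that fell in these 3 lists of double-strand break and crosslink repair, Dclre1c alone fell by more than 2-fold. The counts also rest on few libraries: without mutant untreated replicates 1 and 2 the lower counts were 8 and 6 for homologous recombination and 5 and 1 for end joining, and without WT or mutant 20-week replicate 2 that of end joining was 6.

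Genes mutated in clonal hematopoiesis, the outgrowth of single stem cell clones with age, had 12 of 32 lower and 1 higher, with a median of -0.28. That median was -0.11 in WT and -0.45 in mutants, a difference that was not tested for the list. Tet2, which oxidises methylated cytosine, had 29.5, 23.4, 16 and 26.2 CPM at 20 weeks, against 51, 54.2, 49.4 and 48.2 CPM in untreated HSPCs (log2 fold change -1.10 ± 0.15, adjusted p = 0.000286). The splicing factor gene Srsf2 fell by 0.69, Ezh2, the H3K27 methyltransferase, by 0.65, and Runx1, a core stem cell transcription factor, by 0.65. Without either mutant untreated replicate 6 genes of this list fell. Genes of the SRCAP complex and of H2A.Z handling were 3 of 23 higher and 4 lower, with a median of 0.03, and p53 targets 5 of 38 higher and 5 lower, with a median of 0.20. The shares in these last 2 lists lie near the background of 13.2% and 12.5%. Without mutant 20-week replicate 2, 5 SRCAP complex genes were higher and 3 p53 targets lower; 2 p53 targets were lower without WT untreated replicate 2 or mutant untreated replicate 1, and 3 were higher without either mutant untreated replicate.

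Many of the genes that fell are long, and among genes averaging log2 CPM 3 or more the change followed gene length. The tested genes were split by exonic length into 10 bins of equal size. Above that level, the median log2 fold change ran from 0.48 in the bin of the shortest genes to -0.25 in the bin of the longest. In the bin of the longest genes 28.2% of tested genes were lower and 6.34% higher, and in the next-to-shortest bin 3.5% were lower and 15.8% higher. The bin of the shortest genes, most of them below that level, did not follow this over all its tested genes, with 4.67% lower, 5.95% higher and a median of -0.01. A refit that removes each library's smooth trend on gene length, chosen after this was seen, called 4483 genes, of which 3489 were among the 4610. Under it the median of the MHC class II list was 2.18 and of aged stem cell markers 2.00. It was 1.18 for plasma cell genes and -0.23 for homologous recombination. Other lists moved more. The B cell median was 0.75, with 10 genes higher and 3 lower. That of end joining was -0.13, with 8 genes lower, and that of the BCL2 family 0.19, with 2 higher.

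**Figure D4:**
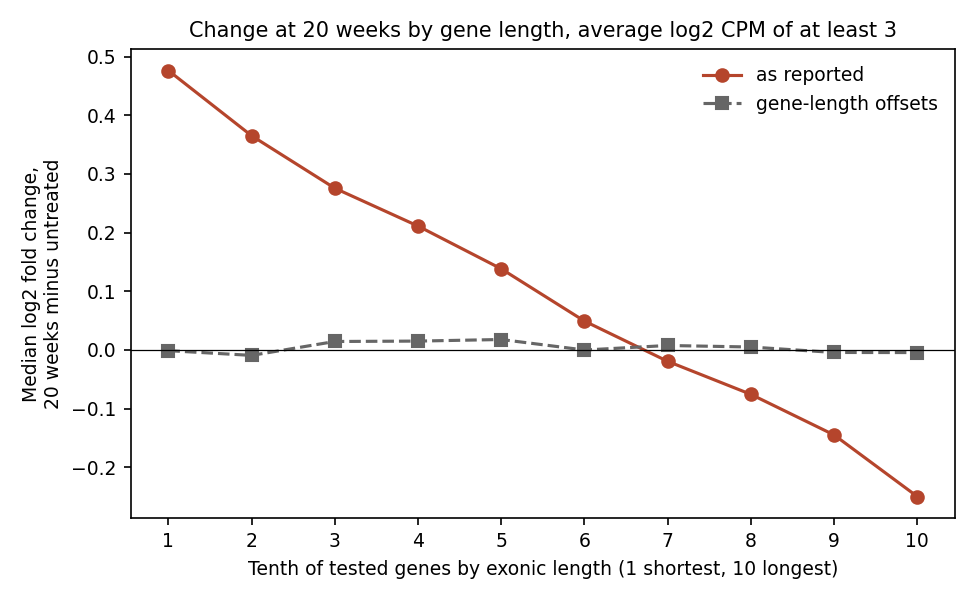
Median log2 fold change, 20 weeks minus untreated, in 10 bins of the tested genes by exonic length, for genes averaging log2 CPM 3 or more, as reported (red circles) and with gene-length offsets (grey squares). The reported medians fall from 0.48 to -0.25, and those with offsets lie near 0.

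Several counts changed under these offsets. Of 78 ribosomal protein genes tested 65 rose and none fell, with a median of 0.57, and 40 rose, with a median of 0.33, under the gene-length offsets. Rplp1, of the ribosomal stalk, had 1313, 1850.2, 1819 and 1330.2 CPM at 20 weeks, against 759, 890.4, 946 and 668 CPM in untreated HSPCs. Rpl36 rose by 1.15 and Rpl8 by 0.92; ribosomal protein genes have many processed pseudogenes, and reads shared with these are uncertain. Nuclear genes of oxidative phosphorylation had 36 of 54 higher and none lower (median 0.43), and under the offsets 16 rose and 2 fell with a median of 0.17. Mitochondrially encoded genes did the opposite, with 5 of 11 lower and none higher and a median of -0.63; under the offsets 8 were lower and the median was -1.04. mt-Nd2, of respiratory complex I, had 1307, 1054, 1498 and 1393 CPM, against 2628, 2914, 2556 and 2259 CPM (log2 fold change -0.98 ± 0.14, adjusted p = 0.000295). Malat1, a nuclear long noncoding RNA, had 196, 136, 133 and 191 CPM, against 439, 417, 509 and 409.5 CPM, and fell by 1.43.

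Of 24 glycolysis genes 12 rose and 2 fell (median 0.38), led by Tpi1 at 0.82, Pfkl at 0.74 and Aldoa at 0.73. Of 24 genes in a list of the oxidative stress response and the factor NRF2, 14 rose and 1 fell (median 0.50). Under the gene-length offsets 9 rose. Hmox1, heme oxygenase, had 48.1, 41.8, 31.8 and 43.6 CPM at 20 weeks, against 20.8, 26.3, 16.6 and 22.6 CPM in untreated HSPCs (log2 fold change 0.94 ± 0.15, adjusted p = 0.00066), and Gpx4, which reduces lipid peroxides, rose by 0.84. Of 22 cholesterol synthesis genes 8 fell and 1 rose (median -0.14), with Hmgcs1 and Idi1, early enzymes of the pathway, lower by 0.75 and 1.03.

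Inflammatory and interferon genes did not move as blocks. Of 40 interferon-stimulated genes 11 rose and 12 fell, with a median of -0.15. Oas2, a sensor of double-stranded RNA, had 15.5, 8.94, 13.4 and 13.2 CPM at 20 weeks, against 43.8, 37, 40 and 46.6 CPM in untreated HSPCs (log2 fold change -1.71 ± 0.17, adjusted p = 3.35e-05), and Mx1, a viral trap GTPase, had 5.17, 2.44, 4.61 and 2.68 CPM, against 12.6, 10.9, 16.8 and 16.1 CPM. Psmb8, a subunit of the immunoproteasome that makes peptides for MHC class I, had 332, 407, 510.1 and 372 CPM, against 216, 238, 235 and 248 CPM, and rose by 0.79; the GTPase gene Igtp rose by 0.84. Without mutant untreated replicate 1 the lower count was 7. Of 26 NF-kB and cytokine genes 7 rose and 5 fell, with a median of 0.25: Nfkb2 and Nfkbia, members of the pathway itself, rose by 1.07 and 0.99, and the cytokine genes Ccl3 and Tnf fell. Ccl3 had 2.96, 2.44, 6.6 and 5.11 CPM, against 14.9, 15.1, 27.1 and 24.6 CPM (log2 fold change -2.30 ± 0.18). Without either mutant untreated replicate 4 of the NF-kB genes rose.

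Heat shock chaperone genes were 9 of 23 higher and 2 lower, with a median of 0.25. Hsph1, an HSP110 chaperone, had 100 and 92.5 CPM in the WT and 209 and 228 CPM in the mutant 20-week libraries, against 73.2 and 71.2 CPM in the WT and 78.6 and 101 CPM in the mutant untreated libraries. Hspa1b, an inducible HSP70, had 1.37 and 1.28 CPM in the WT and 9.52 and 10.2 CPM in the mutant 20-week libraries, against 0.0271 and 0.259 CPM in the WT and 0.0963 and 0 CPM in the mutant untreated libraries; its near-identical copy Hspa1a can share its reads, so its level is uncertain. The difference of the 20-week change between genotypes did not pass for Hsph1 or Hspa1b (adjusted p = 0.998 for each).

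Genes of the marrow niche and of fetal-type stem cells were among the decreases. S1pr1, the sphingosine-1-phosphate receptor that guides cells out of the marrow, rose by 1.38 ± 0.12, with 51.7, 48.8, 48.6 and 56.4 CPM at 20 weeks against 20.6, 23, 18 and 17.6 CPM, and Jam2, a junctional adhesion molecule, rose by 1.91, while Epha7, an ephrin receptor, had 2.07, 1.56, 1.96 and 1.7 CPM against 10.7, 7.14, 9.13 and 6.27 CPM and fell by 2.18. Of 28 homing and retention genes 10 rose and 3 fell (median 0.22). Hmga2, a chromatin protein of fetal and young stem cells, had 8.99, 8.66, 10.4 and 10.1 CPM, against 26.7, 27.3, 45.4 and 53.7 CPM (log2 fold change -1.94 ± 0.16, adjusted p = 1.42e-05), and Igf2bp3, a fetal RNA-binding protein gene, fell by 1.73; 4 of the 11 fetal-type genes tested fell and 1 rose (median -0.65). Of 15 stromal and endothelial genes 6 fell and none rose (median -0.94). Cxcl12, the chemokine that niche cells make to hold stem cells, had 4.53, 2.13, 6.03 and 1.28 CPM, against 20.3, 30.5, 23.1 and 8.84 CPM, and Lepr, a marker of niche stromal cells, had 0, 0.177, 0 and 0.175 CPM, against 2.09, 1.84, 2.06 and 0.753 CPM. Without mutant untreated replicate 1 the stromal count was 2, and Cxcl12 fell below the threshold in 4 of the 8 fits without 1 library.

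Some of the largest decreases stand outside these groups. Slc35d3, a transporter of platelet dense granules in mice (chromosome 10, 19723662 to 19727205, minus strand), had 2.1, 3.63, 2.77 and 3.43 CPM at 20 weeks, against 23.8, 28.4, 40.6 and 30.2 CPM in untreated HSPCs (log2 fold change -3.35 ± 0.21, adjusted p = 3.33e-06). Cd33, a sialic acid receptor of myeloid cells, had 34.9, 40.7, 26.7 and 27.8 CPM, against 197, 122, 134 and 147 CPM, and fell by 2.22. Mir17hg, the host transcript of the miR-17-92 cluster, had 12.3, 5.9, 10.9 and 8 CPM, against 37, 52.3, 48.8 and 51.3 CPM. Gria2, an AMPA glutamate receptor subunit, fell by 3.10 and the germline helicase gene Ddx4 by 1.79. In each of these 5 genes every 20-week library lay below every untreated one.

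The remaining lists are given by their counts. Of 26 BMP and TGF-beta genes 4 rose (15.4%) and 3 fell (11.5%), near the background of 13.2% and 12.5%. Tgfb3, a ligand, rose by 2.00 and Tgfbr3, a coreceptor, by 1.10, and the inhibitory gene Smad7 fell by 0.95. Of 25 cytokine receptor genes 3 rose (12%) and 3 fell (12%), also near the background. Il13ra1 had 29.4, 41, 21.1 and 40.1 CPM at 20 weeks, against 6.23, 15.7, 9.51 and 6.22 CPM in untreated HSPCs. Il1r1, the interleukin-1 receptor, had 56.4, 59.6, 43.5 and 55.4 CPM, against 112, 126, 113 and 108 CPM. Of 19 circadian clock genes 3 rose (15.8%) and 3 fell (15.8%), again near the background. The repressor genes Bhlhe41 (1.62) and Bhlhe40 (1.32) were among those that rose. Txnip, an inhibitor of thioredoxin and of glucose uptake, had 1361, 1310.1, 1426 and 1659.9 CPM, against 737, 756, 619 and 531 CPM, and rose by 1.13 ± 0.14. Of 30 MYC and ribosome biogenesis genes 9 rose (30%) and 1 fell (median 0.19), and of 14 iron uptake and storage genes 4 rose (28.6%) and 5 fell (35.7%) (median -0.08), with Tfrc and the ferritin light chain gene Ftl1 (0.80 higher) at opposite ends. The 15 inflammasome genes had 3 higher and 3 lower (20% each), and the 23 replication-dependent histone genes 0 higher and 1 lower (4.35%). The 16 BCL2 family genes had 5 higher and none lower; without WT 20-week replicate 2 or WT untreated replicate 1 this count was 3, without mutant 20-week replicate 1 or mutant untreated replicate 1 it was 2, and without mutant untreated replicate 2 it was 1. Of 29 immediate early genes 5 rose and 2 fell, and 3 rose without WT 20-week replicate 2, mutant 20-week replicate 2 or either mutant untreated replicate. As shares of the genes tested, 17.2% of the immediate early genes were higher and 6.9% lower, and 31.2% of the BCL2 family genes were higher. Bad, a pro-apoptotic member of the BCL2 family, rose by 0.76.

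Among the genes called, the 2 genotypes moved in the same direction. Medians of some lists over all tested members, such as the erythroid list, had opposite signs in WT and mutants. These differences were not tested. In a fit with 1 mean per group 930 genes differed at 20 weeks in WT and 2770 in mutants, 769 were called in both with the same sign and 0 with opposite signs. The sign was the same in both genotypes for 100% of the 4610 genes of the pooled comparison, which the pooling itself favours. A test of the difference of the 20-week change between genotypes passed for 1 of 17988 genes (0.00556%) by edgeR, with 840 genes at an unadjusted p under 0.05 and 27 called by DESeq2. That gene was Capn11, a calpain protease, with 0 and 0 CPM in the WT and 1.66 and 1.43 CPM in the mutant 20-week libraries, against 3.6 and 2.13 CPM in the WT and 0.578 and 0.307 CPM in the mutant untreated libraries (adjusted p = 0.0387). Its WT 20-week libraries held 0 counts each, so the fitted difference of 11.84 on the log2 scale is no measure of its size. Without 1 library the number of such genes ran from 0 to 210, with 174 without mutant 20-week replicate 2, 210 without WT untreated replicate 2, 7 without WT untreated replicate 1 and 0 without any of the others.

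The other HSPC libraries of the series give levels beside these, without a test. Selp was at 33.4 to 46.4 CPM in the 4 libraries from 2 weeks after transplantation and 9.23 to 14.3 CPM in the 4 doxorubicin libraries, so the 20-week range of 52.4 to 113 CPM was the highest of the 4 conditions. Aldh1a1, at 76.4 to 139 CPM, and Vwf, at 34.9 to 46.4 CPM, overlapped at 2 weeks with their 20-week ranges of 97.2 to 160.1 and 46 to 77.7 CPM. Over the whole aged stem cell list the median log2 fold change at 2 weeks against untreated was -0.15, in a fit of all 16 HSPC libraries. H2-Aa was at 83 to 109 CPM at 2 weeks and 54.3 to 134 CPM after doxorubicin, near the untreated range of 71.4 to 144 CPM. Mt1 was at 76.5 to 83.9 CPM at 2 weeks and 2.8 to 5.27 CPM after doxorubicin, so its 2-week range lay above the 20-week range of 24.4 to 39.6 CPM. Nupr1 was at 0.548 to 1.56 CPM at 2 weeks and 0.313 to 1.32 CPM after doxorubicin, within the untreated range of 0.288 to 1.98 CPM and below the 20-week range of 6.48 to 20.5 CPM. The 2-week libraries come from another header directory again and express Xist, which the 20-week and untreated libraries do not beyond 0.585 CPM, while the doxorubicin libraries share the directory of the untreated ones.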

How the data were processed

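Stranded mRNA libraries were made from sorted HSPCs. The deposited values are raw read counts per gene, made by the authors with featureCounts 2.0.1 in paired, reverse-stranded mode over exons of GENCODE M28, per the file headers. FastQC, STAR and Subread are also named, without versions, in the submitters' processing notes, as are the builds mm39 and mm10. Gene symbols were matched for 52081 of 55414 identifiers, and 433 genes (immunoglobulin genes and Jchain) were removed, which left 54981. Low-count genes were filtered with filterByExpr (minimum 10 in a library, 15 in total), and 8 libraries were fitted with genotype and condition in edgeR 4.0.16 (R 4.3.3) with TMM factors and robust quasi-likelihood. CPM are TMM-scaled over all 16 HSPC libraries. DESeq2 1.42.0, other scalings, filters and fits, and leaving out each library were alternatives; gene-length offsets (loess, span 0.5) were added after the data were seen. The difference between genotypes was tested as an interaction. The edgeR steps were tested on simulated data.

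The comparison, its genes and the 46 gene lists were chosen with earlier results of these data known. Some genes, such as Slamf1, Ly6d and Flt3, are in more than 1 list and count in each, so results of such lists are not independent. Genes named are Srcap, the 15 largest called changes in each direction among genes averaging log2 CPM 3 or more whose groups do not overlap, up to 6 called members per list with its defining markers, and called interaction genes; Zfp36, Hoxa7 and some others with single values were added after their values were seen. For some libraries the path in the file header carries another replicate number than the label; the labels were followed. A few members of the lists are not reported here by name. Replicate numbers were not used as pairs. Different replicates of a group differed by far more than sampling noise, so none was counted as a duplicate. Total counts limit precision at low levels: 3 counts correspond to 0.052 to 0.0864 CPM in these 8 libraries.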

Additional observations from a re-analysis of the deposited data

Results flagged for a closer look

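In all, 322 sets of 4 libraries were examined, for the named genes and the immunoglobulin share in the 20-week or the untreated HSPCs. Of these, 30 held a library that stood apart from the other 3 by Dixon's criterion. Chance gives about 1 in 20 for independent, normally spread values. CPM of genes that move together are not such values, so no excess over chance can be read from the 30. WT untreated replicate 1 accounts for 9 of the 30. In that library S100a8 was at 4451, S100a9 at 9227, Ltf at 2374, Camp at 1602 and Ngp at 3694 CPM, all neutrophil granule genes. The same library was also high in Csf1r (56.7 CPM), Prss34 (15 CPM), Hba-a1 (41.3 CPM) and Cdh5 (2.01 CPM), which mark monocytes, basophils, red cells and endothelium.

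In the other untreated libraries, mutant replicate 2 was high in Cd48 (137 CPM) and Ezh2 (322 CPM) and low in Cr2 (0.613 CPM) and Bhlhe40 (5.41 CPM). Mutant replicate 1 was low in Hoxb6 (0.347 CPM) and high in Gria2 (20.6 CPM). WT replicate 2 was high in Prdm1 (24.4 CPM), Cxcr5 (12.8 CPM) and Scd1 (26 CPM).

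At 20 weeks, WT replicate 1 was high in Csf1r (20.5 CPM) and Cd3e (2.36 CPM) and low in Cdh5 (0.987 CPM) and Ly6k (10.9 CPM). WT replicate 2 was high in Flt3 (550.3 CPM), Xcr1 (16.7 CPM) and Gria2 (3.03 CPM) and low in Cdkn1b (62.8 CPM). Mutant replicate 1 was high in S100a9 (45.2 CPM) and Nkg7 (131 CPM), and mutant replicate 2 was high in Bhlhe40 (31.1 CPM) and low in Srsf2 (265 CPM).

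Capn11 was the 1 gene whose 20-week change differed between genotypes, by 11.84 on the log2 scale, mutant minus WT, in edgeR's interaction test; it held 0 counts in both WT 20-week libraries. The immunoglobulin genes and Jchain, which enter no test, held at least 16.9% of all counts in every 20-week library, above the highest untreated share of 6.22%.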

How the results depend on the processing

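The 4610 genes that differed at 20 weeks numbered 5524 with DESeq2, 4588 with RLE size factors, 5150 without a count filter, 4699 with at least 50 counts in 4 libraries, 4553 with immunoglobulin genes kept, 4580 with all 16 HSPC libraries in the fit, 4596 with 1 mean per group and 4483 with gene-length offsets. No gene called in both the reported fit and any of these, or in any fit without 1 library, changed sign. Fits on the 4 WT or the 4 mutant libraries alone called 973 and 2100 genes, with fewer libraries each. Leaving out 1 library gave 2929 to 4361. RLE size factors put 2244 genes higher and 2344 lower. The interaction count of 1 became 27 with DESeq2, 84 without a count filter, 0 with immunoglobulin genes kept, 0 with all 16 libraries and 0 to 210 without 1 library; the cause was not tested. With the replicate number as a block the counts were 4420 and, for the interaction, 4; correlations between same-numbered libraries ran from -0.121 to 0.086, so the numbers name libraries and do not pair them. Under gene-length offsets Cd48 changed from 0.01 to -0.37 (adjusted p = 0.0129, edgeR) and Nkg7 from 0.44 to 0.00 (adjusted p = 0.993). List counts of 4 or fewer changed by 0 to 4 genes without 1 library. List medians moved by over 1.5 times without mutant untreated replicate 2 for early lymphoid priming (-0.37), G2 and M phase (-0.24) and Fanconi anaemia genes (-0.15), without mutant untreated replicate 1 for fetal-type genes (-1.05), and without mutant 20-week replicate 1 for clonal hematopoiesis genes (-0.16), as did erythroid, basophil, monocyte and neutrophil medians and those of several lists with smaller medians. Over all alternatives, 124 values of list medians moved by more than the spread between replicates and 750 did not; of the values for named genes, 140 lost and 40 gained a call, 2872 kept their side of the threshold and 2, those of Cd48 and Nkg7, reversed. With 2 libraries per group, small changes of low genes were not detectable at this depth.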
